A study of Homo sapiens with 6 samples.

Results

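The RUNX, CBFB and ETO family genes are 7 of the 20007 protein-coding genes of the GENCODE v44 annotation, and were chosen by name: RUNX1, RUNX2, RUNX3, CBFB, RUNX1T1, CBFA2T2 and CBFA2T3. The acetylation of histone H3 at lysine 27 (H3K27ac), a mark of active promoters and enhancers, was described over each of them in acute myeloid leukemia (AML) cells. For every gene a locus was taken as the gene record with 50 kb to each side, and a promoter window as 2500 bases to each side of every annotated transcript start, with overlapping windows of a gene merged. The 7 genes had 115 starts in 35 promoter windows. Of the 7 loci, 6 held at least 1 peak in every list, and the RUNX1T1 locus held 0 peaks in all 4 lists. Among all protein-coding genes, 25.2% to 31.7% had no peak in their locus, depending on the list.

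The study asked how knockdown of ANP32B, a nuclear protein that binds histones, alters H3K27ac in AML cells, and measured the mark by CUT&Tag, in which an antibody guides a transposase to the marked chromatin. Of the 6 samples, 4 were H3K27ac libraries with 1 peak list each, and the 2 IgG libraries, 1 per cell line, were not analysed here. Kasumi-1, labelled Kasumi, is an AML line with the RUNX1::RUNX1T1 fusion, and MV4-11 is an AML line with a KMT2A fusion. In each line, NC cells carried a control hairpin per the study's methods and are labelled untreated, and sh-ANP32B cells carried a hairpin against ANP32B. Both kinds of cell were infected with lentivirus and kept under puromycin, and which of the study's hairpins the sh-ANP32B libraries carried is not given in the sources used here. Replicates were merged before the peaks were called, so there was 1 list per group, no spread between replicates and no test. Every difference below therefore describes these libraries only. The lists give the position and width of each peak but no height and no read total, so the depth is unknown.

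RUNX1, RUNX2 and RUNX3 are transcription factors that share a DNA-binding domain, and CBFB is their partner, which does not bind DNA itself but strengthens their binding. RUNX1 is needed to form blood stem cells and to guide myeloid differentiation, and each RUNX gene is transcribed from a distal promoter (P1) and a proximal promoter (P2). RUNX1T1 (ETO), CBFA2T2 (MTGR1) and CBFA2T3 (ETO2, MTG16) are corepressors that bring histone deacetylases to DNA-bound factors, and the translocation of Kasumi-1 joins the 5′ part of RUNX1 to most of RUNX1T1. In a bulk list the fused and the normal RUNX1 allele cannot be told apart, nor can fewer marked cells be told from less mark per cell.

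The 4 lists held 22136 to 24523 peaks on the main chromosomes, and these covered 32712240 and 33674144 bases in the Kasumi-1 lists (NC, then sh-ANP32B) but 27891707 and 23004402 bases in the MV4-11 lists (in the same order). The narrowest peak was 357 and 354 bases wide in the Kasumi-1 lists and 289 and 275 bases in the MV4-11 lists, so the lists were called with different smallest widths. Of 7 myeloid genes, 4, 4, 5 and 3 had a promoter peak in the 4 lists. Here and below, 4 values given together follow 1 order, first NC and sh-ANP32B of Kasumi-1 and then NC and sh-ANP32B of MV4-11. Their summed promoter bases were 9895, 10003, 7541 and 3863. SPI1, the myeloid factor PU.1, was covered in every list, MPO in none, PTPRC and LYZ in neither Kasumi-1 list, and CD33 in neither MV4-11 list. The lymphoid gene CD79A had a promoter peak in all 4 lists, whereas CD3D, CD3E and MS4A1 had none. Of the 4 erythroid genes, KLF1 alone had a promoter peak, in 3 lists, and of 4 genes of tissues other than blood, COL1A1 alone, in both Kasumi-1 lists. POU4F1, a gene known to be expressed in AML with the RUNX1::RUNX1T1 fusion, had 0 bases under peaks in its locus in both Kasumi-1 lists and 1466 and 1445 in the MV4-11 lists, which goes against what is known of leukemias with the fusion, and TRH, another gene known from these leukemias, had 3948 bases in the NC list of Kasumi-1 and 1740 in that of MV4-11. The ANP32B promoter held 3961, 3926, 3909 and 2631 bases under peaks, which does not measure its transcript, so the lists give no check of the knockdown.

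The promoters and the intronic region that the results turn on are printed here from the hg38 genome, 5′ to 3′ on the strand of the gene, so that the paired RUNX promoters can be read beside their peaks. Each promoter stretch is the 250 bases before the most upstream start of its window, the intronic stretch is 300 bases from the middle of the part under a peak in every list, and none of them overlaps an annotated exon. Capitals mark matches to the RUNX motif, TGTGGT or TGCGGT on either strand (read on the opposite strand as ACCACA or ACCGCA). RUNX1 P1 at chr21:35049345-35049594 and RUNX1 P2 at chr21:34889791-34890040, on the minus strand, are shown because the promoter window of each had a peak in every list. Of the printed 250 bases, P2 was under a peak in full in every list, while P1 had 110, 110, 221 and 0 bases under a peak. The RUNX1 intron 2 region at chr21:35026818-35027117, also on the minus strand, is shown as a region covered in every list but more widely in MV4-11. RUNX2 P1 at chr6:45327907-45328156, on the plus strand, is shown as a promoter without a peak in any list. RUNX3 P1 at chr1:24965122-24965371 and RUNX3 P2 at chr1:24930277-24930526, on the minus strand, are shown because both had wider peaks in Kasumi-1. CBFB at chr16:67028734-67028983, on the plus strand, is shown because its peak was absent from MV4-11 sh-ANP32B.
RUNX1 P1: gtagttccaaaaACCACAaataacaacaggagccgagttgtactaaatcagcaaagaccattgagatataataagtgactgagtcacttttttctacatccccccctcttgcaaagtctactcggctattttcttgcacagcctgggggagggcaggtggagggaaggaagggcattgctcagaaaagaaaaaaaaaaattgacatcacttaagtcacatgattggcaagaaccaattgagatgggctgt
RUNX1 P2: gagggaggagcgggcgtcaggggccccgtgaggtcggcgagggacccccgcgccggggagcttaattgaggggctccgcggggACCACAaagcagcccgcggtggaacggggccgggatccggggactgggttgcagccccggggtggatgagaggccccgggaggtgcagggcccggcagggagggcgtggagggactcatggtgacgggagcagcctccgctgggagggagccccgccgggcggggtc
RUNX1 intron 2: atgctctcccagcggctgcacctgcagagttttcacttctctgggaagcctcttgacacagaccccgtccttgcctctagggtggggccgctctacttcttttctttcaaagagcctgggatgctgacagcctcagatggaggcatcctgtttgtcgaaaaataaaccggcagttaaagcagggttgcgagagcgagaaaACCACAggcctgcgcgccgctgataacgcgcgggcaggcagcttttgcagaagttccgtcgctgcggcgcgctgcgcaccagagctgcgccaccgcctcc
RUNX2 P1: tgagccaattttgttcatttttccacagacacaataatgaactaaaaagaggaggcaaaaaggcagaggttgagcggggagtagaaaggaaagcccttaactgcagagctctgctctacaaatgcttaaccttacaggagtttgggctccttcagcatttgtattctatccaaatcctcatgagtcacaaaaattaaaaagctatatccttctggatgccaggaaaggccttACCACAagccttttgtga
RUNX3 P1: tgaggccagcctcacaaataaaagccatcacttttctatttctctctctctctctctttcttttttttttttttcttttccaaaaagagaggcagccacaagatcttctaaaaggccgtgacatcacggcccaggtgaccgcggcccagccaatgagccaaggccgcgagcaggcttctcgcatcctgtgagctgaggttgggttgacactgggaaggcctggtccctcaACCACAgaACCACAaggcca
RUNX3 P2: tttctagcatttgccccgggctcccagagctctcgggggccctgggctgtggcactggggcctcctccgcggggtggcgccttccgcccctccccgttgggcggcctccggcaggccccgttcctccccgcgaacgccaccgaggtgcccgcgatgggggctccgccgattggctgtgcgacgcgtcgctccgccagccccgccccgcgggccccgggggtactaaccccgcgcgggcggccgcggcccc
CBFB: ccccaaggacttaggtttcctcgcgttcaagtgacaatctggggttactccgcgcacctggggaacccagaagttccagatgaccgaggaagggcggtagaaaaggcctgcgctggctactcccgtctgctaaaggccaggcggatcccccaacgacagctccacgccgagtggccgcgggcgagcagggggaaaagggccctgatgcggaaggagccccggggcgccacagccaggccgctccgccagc

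RUNX1 P1, RUNX1 P2 and RUNX2 P1 each had 1 match in these 250 bases, RUNX3 P1 had 2 matches, and RUNX3 P2 and CBFB had 0. The P1 stretches had GC contents of 42.8% (RUNX1), 41.6% (RUNX2) and 51.2% (RUNX3), below the 76.0% of RUNX1 P2 and the 78.4% of RUNX3 P2. Of the 35 promoter windows of the family, 6 (17.1%) had a match in the 250 bases before the start, against 17.5% of all 45361 promoter windows, so the family was close to the background. In the central 300 bases of the peaks, a match was found in 28.1%, 22.6%, 24.6% and 26.1% of the family's peaks and in 25.3%, 26.0%, 26.3% and 26.2% of all peaks, in the same order of lists. A match describes these letters and not a bound site.

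RUNX1, on the minus strand of chromosome 21 from 34787801 to 36004667, held the most peaks of the family in every list. It had 28 peaks in each Kasumi-1 list, 36 in MV4-11 NC and 47 after knockdown in MV4-11. The bases under these peaks were 30499, 34488, 57526 and 58750. Both MV4-11 lists thus lay above both Kasumi-1 lists, although the MV4-11 lists covered less of the genome. RUNX1 alone made up 34.4% and 37.6% of all bases under peaks in the 7 loci in Kasumi-1, and 62.0% and 69.6% in MV4-11. Its locus was also the longest of the 7, at 1317 kb. Peaks covered 2.32%, 2.62%, 4.37% and 4.46% of it, at percentiles 59.5, 62.0, 83.0 and 87.6 of all protein-coding genes.

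**Figure D1:**
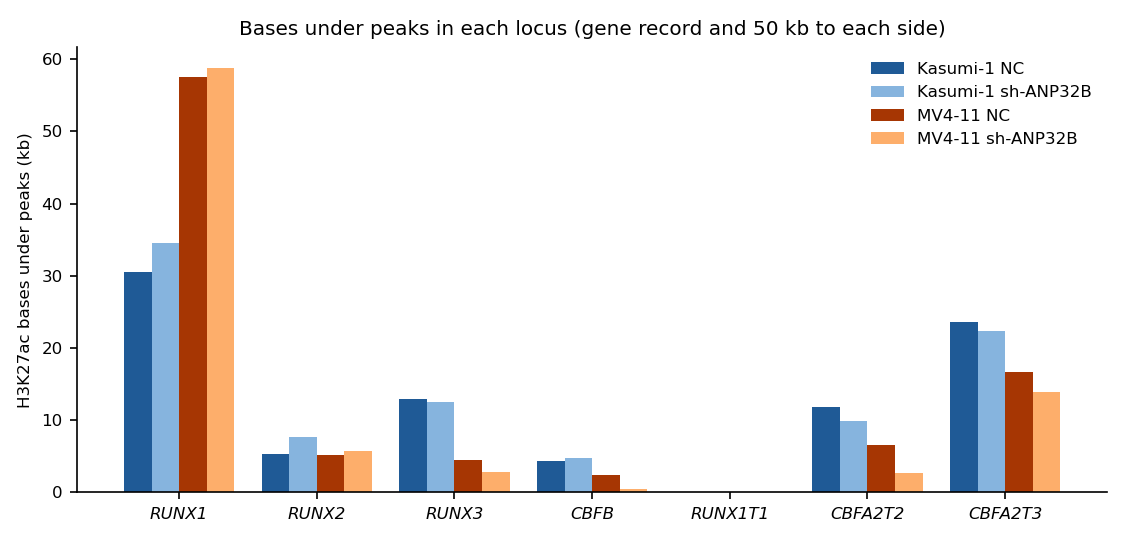
Bases under H3K27ac peaks, in kb, in the locus of each of the 7 genes (bars, 1 per list, 1 list per group, so no error bars). The RUNX1 bars of MV4-11 stand above those of Kasumi-1, those of RUNX3, CBFB, CBFA2T2 and CBFA2T3 show the opposite order, and RUNX1T1 has no bar.

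The GENCODE record of RUNX1 is 1216867 bases long because it holds transcripts that start far upstream of P1, and peaks covered between 0.124% (Kasumi-1 NC) and 0.451% (MV4-11 sh-ANP32B) of the stretch upstream of P1. From P1 to P2, 160 kb, peaks covered 6.91%, 8.85%, 14.4% and 14.7%. From P2 to the end of the gene, 102 kb, they covered 17.9%, 18.7%, 29.9% and 30.1%. Both stretches were covered more in MV4-11 than in Kasumi-1, and within a line the NC and sh-ANP32B values lay closer together than the lines did. No peak lay in the 50 kb past the 3′ end.

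**Figure D2:**
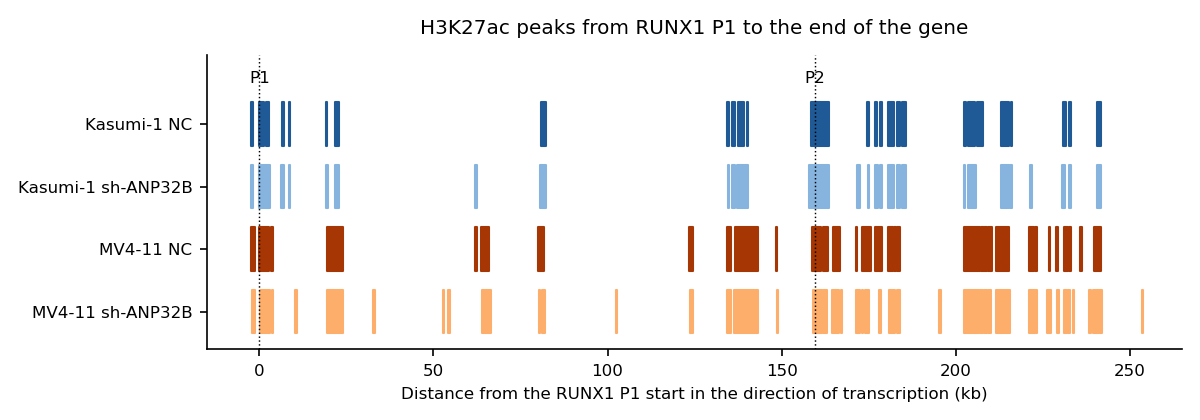
Position of every H3K27ac peak from RUNX1 P1 to the end of the gene, as distance from the P1 start in kb, with 1 row per list and bars drawn to scale (dotted lines: P1 and P2). Peaks lie at both promoters in every row, and the MV4-11 rows hold wider bars between the promoters and after P2.

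Both RUNX1 promoters were marked in every list. The P1 window held 2721, 3295, 3822 and 3416 bases under peaks, and the P2 window, 159554 bases downstream, 5149, 5565, 4082 and 3878. At P1 the MV4-11 lists were the higher ones, and at P2 the Kasumi-1 lists, in which 1 unbroken peak spanned the promoter. Both MV4-11 lists had 2 peaks there. In MV4-11 sh-ANP32B the edge of the P2 window also touched a peak of the separate region at 166 kb. In MV4-11 NC the peak of that region ended short of the window. All 6 annotated starts at P1 lay under a peak in 3 lists and 0 of 6 in MV4-11 sh-ANP32B, whose peaks lay to both sides of the starts. All 4 starts at P2 lay under a peak in every list.

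The peaks of the 4 lists in the RUNX1 locus merged into 48 regions, of which 15 were covered in every list, 13 in both MV4-11 lists only, 5 in both Kasumi-1 lists only and 12 in 1 list only. In this locus, peaks of both NC lists covered 0.372 of the bases under peaks of either, against 0.396 for the whole lists. For the sh-ANP32B lists the values were 0.352 and 0.326. The overlap between the lines in RUNX1 was thus close to that of the whole lists. In intron 2, the long intron after P1 in which a known blood enhancer of RUNX1 lies, the region centred 21.4 kb past the start held 1633 and 1803 bases under peaks in the Kasumi-1 lists and 4429 and 4412 in the MV4-11 lists. The region at 140 kb, the widest in the locus, held 3069, 4019, 6777 and 6763 bases. The region at 65.0 kb held 0, 0, 2420 and 2578 bases, so it was covered in MV4-11 only. The region at 6.61 kb went the other way, with 563, 626, 0 and 0 bases. When peaks at most 10000 bases apart were stitched into domains and ranked by their bases under peaks, the highest RUNX1 domain ranked 790 of 13349, 318 of 13319, 63 of 14216 and 26 of 12747 in the 4 lists. In both sh-ANP32B lists the highest domain joined stretches that were separate domains in NC. In Kasumi-1 it held 12052 bases in 8 peaks, and the separate NC domains held 5149 and 4989 bases. In MV4-11 it held 21384 bases in 14 peaks, and the separate NC domains held 13610 and 9290 bases. The ranks of NC and sh-ANP32B thus belong to domains of different extent.

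RUNX2, the RUNX factor of bone, lies on the plus strand of chromosome 6. Its locus held 5383, 7699, 5150 and 5678 bases under 4, 7, 6 and 6 peaks, a range in which the lines overlapped. P1 had no peak in any list. The P2 window, 93706 bases downstream of the start of the canonical transcript, held 3191 and 3201 bases in the Kasumi-1 lists and 0 in both MV4-11 lists. A region in the second intron, at 49.6 kb, was covered in every list, with 1213, 1243, 980 and 308 bases, and lies in a promoter window of SUPT3H, the overlapping neighbour. A region at 109 kb was covered in MV4-11 only, with 1242 and 753 bases. The shared share of bases (bases under peaks of both lists over bases under peaks of either, the Jaccard index) was 0.103 between the NC lists of the 2 lines, against 0.396 for the whole lists, so in RUNX2 the 2 lines marked mostly different stretches.

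RUNX3, a RUNX factor of lymphoid and myeloid cells, lies on the minus strand of chromosome 1. Its locus held 12884 and 12535 bases under peaks in Kasumi-1 and 4426 and 2864 in MV4-11. The P1 window held 3350, 3416, 1501 and 1559 bases and the P2 window 3516, 3002, 1148 and 508. Both promoters were therefore marked in every list and more widely in Kasumi-1. Upstream of P1, a region centred at -78.1 kb from the P2 start held 4068, 4026, 1123 and 0 bases, and a second one at -71.0 kb held 1015, 1041, 654 and 0. A region 81.3 kb past the P2 start, beyond the 3′ end of the gene, held 2207, 2027, 913 and 0 bases. These 3 flanking regions were the ones absent from MV4-11 sh-ANP32B but present in the other lists.

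CBFB, the partner subunit, lies on the plus strand of chromosome 16. Its locus held 4327, 4759, 2416 and 518 bases under 3, 4, 4 and 1 peaks. The main promoter window, with 9 annotated starts, held 2445 and 2840 bases in Kasumi-1, 1197 in MV4-11 NC and 0 after knockdown in MV4-11. All 9 starts lay under a peak in the first 3 lists and none in the last. The single peak left in MV4-11 sh-ANP32B, 518 bases wide, lay in the flank 87.9 kb past the start, outside the gene. The Kasumi-1 lists also had a peak at 81.4 kb, of 1388 and 1382 bases, in a promoter window of the neighbour PHAF1.

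RUNX1T1, the fusion partner of RUNX1 in Kasumi-1, lies on chromosome 8 and had no peak in its body, its 7 promoter windows or its flanks in any list. A locus without a peak was found for 25.2%, 25.8%, 27.4% and 31.7% of all protein-coding genes in the 4 lists. For RUNX1T1, distances to the nearest peaks were as follows. The nearest peak past its 3′ end was 884 kb away in both Kasumi-1 lists and 885 kb away in both MV4-11 lists. Past its 5′ end the distance was 1637 kb in Kasumi-1 and 1561 kb in MV4-11. No H3K27ac peak was thus listed over the part of RUNX1T1 that the fusion joins to RUNX1, in the line with the fusion or in the line without it.

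CBFA2T2 lies on the plus strand of chromosome 20. Its locus held 11894, 9832, 6620 and 2736 bases under peaks, but its own promoter window held 1721, 1658, 500 and 296 of them. Of the 7 regions of the locus, 5 lay in promoter windows of the neighbours C20orf144, NECAB3, ACTL10 and E2F1, 174 to 196 kb past the start of CBFA2T2. Peaks in these windows held 9056 and 6782 of the bases in the Kasumi-1 lists and 4380 in MV4-11 NC, the larger part of the locus value in these 3 lists, but 1164 in MV4-11 sh-ANP32B, where a peak in the flank held 1276. At its own promoter the Kasumi-1 lists were the higher ones, and all 3 starts lay under a peak in Kasumi-1 NC but none in the other lists.

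CBFA2T3 lies on the minus strand of chromosome 16 and had the largest share of its locus under peaks in the family, 11.6%, 11.0%, 8.26% and 6.85% in the 4 lists. Among all protein-coding genes these shares stood at percentiles 91.9, 90.8, 93.9 and 94.0, so its place among genes was alike in all lists while its bases were fewer in MV4-11. Within the gene body, 3 broad regions held most of the bases under peaks, at the first start, at 20.4 kb and at 39.6 kb, both of the latter in intron 1 and overlapping windows of internal starts. The region at the first start held 5329, 4906, 4198 and 3112 bases, the one at 20.4 kb 5391, 4069, 5263 and 4527, and the one at 39.6 kb 4339, 4348, 3789 and 3410. All 3 were covered in every list. The regions at 121 and 137 kb lay in promoter windows of the neighbours GALNS and TRAPPC2L and held 930 to 4256 bases.

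Across the family, 10, 11, 11 and 10 of the 35 promoter windows had a peak, which is 28.6%, 31.4%, 31.4% and 28.6%. Of all 45361 promoter windows, 26.1%, 25.1%, 21.3% and 17.6% had one. Of the 7 genes, 6, 6, 5 and 4 had at least 1 promoter peak. RUNX1T1 had none in any list, RUNX2 none in MV4-11 and CBFB none in MV4-11 sh-ANP32B. In all, 8 windows had a peak in every list: RUNX1 P1 and P2, both RUNX3 promoters, CBFA2T2 and 3 windows of CBFA2T3. Of the 115 annotated starts, 34, 30, 26 and 8 lay under a peak, which is 29.6%, 26.1%, 22.6% and 6.96%, beside 35.6%, 31.9%, 21.5% and 15.4% of the 170180 starts of all protein-coding genes. The step from 26 to 8 in MV4-11 came from 3 windows, CBFB with 9 starts, RUNX1 P1 with 6 and RUNX3 P1 with 3, whose starts all lay under a peak in NC and none after knockdown. RUNX1 P1 and RUNX3 P1 still had a peak in their windows, beside the starts. In MV4-11 NC and sh-ANP32B, the RUNX1 P1 window held 3822 and 3416 bases under peaks and the RUNX3 P1 window 1501 and 1559. The count of starts thus fell further than the bases under peaks at these promoters.

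**Figure D3:**
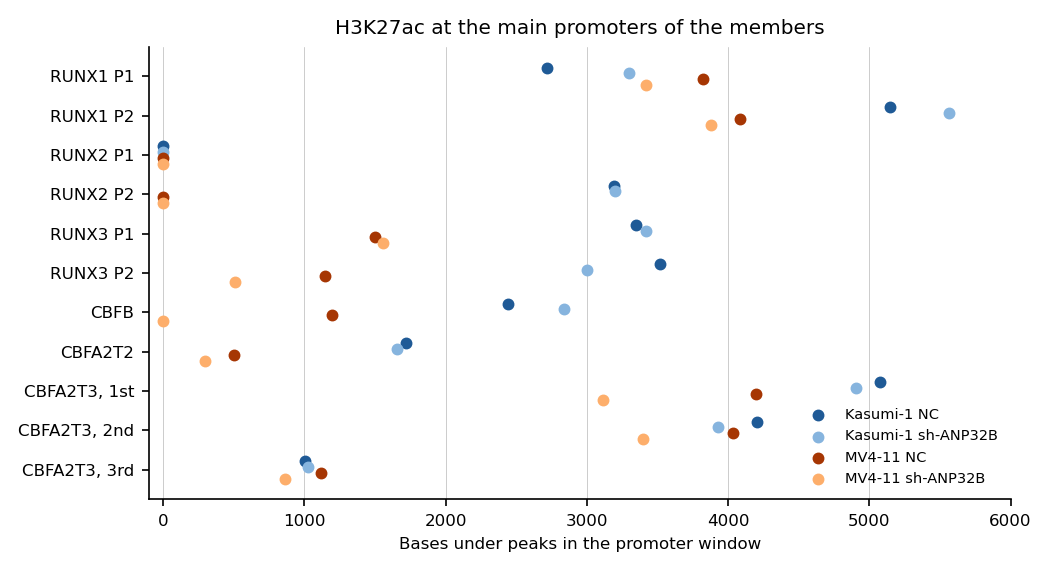
Bases under H3K27ac peaks in the promoter windows named in the text (points, 1 per list, with 0 where the list has no peak), including RUNX2 P1, which has none. The RUNX2 P2, RUNX3 and CBFB points of Kasumi-1 lie to the right of those of MV4-11, while at RUNX1 P1 the lowest point is that of Kasumi-1 NC.

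To compare sh-ANP32B with NC, a gene was tested where either list had at least 1000 bases under peaks in its locus, and called higher or lower where the bases differed by at least 1.5-fold. In Kasumi-1, 0 of the 6 genes tested were called, against 3.04% of all 13502 genes called higher and 4.53% called lower. The log2 ratios of sh-ANP32B over NC were 0.18 for RUNX1, 0.52 for RUNX2, -0.04 for RUNX3, 0.14 for CBFB, -0.27 for CBFA2T2 and -0.08 for CBFA2T3. Their median was 0.05, beside 0.03 over all genes. RUNX2 had the highest ratio, from 5383 to 7699 bases, and was called higher once peaks in promoter windows of neighbours were left out, with a log2 ratio of 0.63.

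In MV4-11, 3 of the 6 genes were called lower after knockdown (RUNX3, CBFB and CBFA2T2) and 0 higher, against 34.1% of all 12219 genes called lower and 3.94% called higher. The median log2 ratio of the 6 genes was -0.45 and that of all genes -0.36, but the 6 ratios lay on both sides of 0, from -2.22 to 0.14, and the family did not move as a group. CBFB had 2416 bases in NC and 518 in sh-ANP32B, a log2 ratio of -2.22 that had 461 of the 12219 genes below it (percentile 3.77, with genes whose peaks were all absent after knockdown counted as below). It was called lower under every alternative that gave a ratio, between -2.22 and -0.92. CBFA2T2 had 6620 and 2736 bases, a log2 ratio of -1.27, and lost its call without the peaks of its neighbours, at -0.51. RUNX3 had 4426 and 2864 bases, a log2 ratio of -0.63, which was carried by its far flanks: with a flank of 20 kb it was 0.11, the opposite direction, and for the gene body alone -0.06.

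RUNX1 and CBFA2T3, the members with the most bases, were not called in MV4-11. RUNX1 had 57526 and 58750 bases, a log2 ratio of 0.03 at percentile 81.3 of all genes, and CBFA2T3 16718 and 13855, a log2 ratio of -0.27 at percentile 57.5. RUNX2 had 5150 and 5678 bases, a log2 ratio of 0.14. Within its gene body, however, RUNX2 had 4826 and 2599 bases, and with no flank, with a flank of 20 kb and with the canonical transcript its log2 ratio was -0.89 and RUNX2 was called lower. The peaks past its 3′ end were more in sh-ANP32B. When the bases were divided by the covered length of each list, CBFB and CBFA2T2 were still called lower and RUNX3 was not, at -0.35.

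Peak by peak, 54 of the 57 NC peaks in the family's loci overlapped a sh-ANP32B peak in Kasumi-1, which is 94.7% (Wilson 95% interval 85.6 to 98.2, for counting error only), beside 91.0% of all NC peaks. In MV4-11, 50 of 65 did, 76.9% (65.4 to 85.5), beside 70.9% of all. RUNX1 kept 27 of 28 NC peaks in Kasumi-1 and 34 of 36 in MV4-11. In MV4-11, RUNX3 kept 2 of 5, CBFB 1 of 4, CBFA2T2 3 of 6 and CBFA2T3 6 of 8. The NC peaks without a partner had a median width of 622 bases in MV4-11, against 1264 for those with one. Of the sh-ANP32B peaks in RUNX1, 11 of 47 had no NC partner in MV4-11 and 3 of 28 in Kasumi-1. Over the family, 54 of 62 sh-ANP32B peaks had an NC partner in Kasumi-1 (87.1%), beside 86.8% of all, and 54 of 69 in MV4-11 (78.3%), beside 82.3% of all.

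Among peaks that matched 1 to 1, 19 of 23 in RUNX1 were wider after knockdown in Kasumi-1, where the median change over the 23 was 51 bases, and 15 of 27 were narrower in MV4-11, where the median change over the 27 was -13 bases. For all matched peaks, 40.5% were narrower in Kasumi-1 and 63.4% in MV4-11, and RUNX1 had 17.4% and 55.6%. In MV4-11 the Jaccard index between NC and sh-ANP32B was 0.762 for CBFA2T3 and 0.676 for RUNX1, above the 0.582 of the whole lists, and 0.413 for CBFA2T2, 0.370 for RUNX2, 0.296 for RUNX3 and 0.204 for CBFB, below it. In Kasumi-1 all 6 loci lay between 0.685 and 0.870, beside 0.783 for the whole lists.

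Of the promoter windows with a peak in NC, 0 of 10 lost it after knockdown in Kasumi-1, where 6.86% of all such windows did, and 2 of 11 lost it in MV4-11, where 23.7% did. Both lost windows were of CBFB, the main one and one 50411 bases downstream that an NC peak reached with 112 bases. Of the windows without a peak in NC, 1 of 25 gained one in Kasumi-1, beside 1.16% of all, and 1 of 24 in MV4-11, beside 1.73%. Both gained windows were of internal RUNX1 starts, covered by 458 bases in Kasumi-1 and 81 bases in MV4-11.

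Between the lines, RUNX1 was the one gene of the 6 called lower in Kasumi-1 NC than in MV4-11 NC, with a log2 ratio of -0.92, and RUNX3, CBFB and CBFA2T2 were called higher, with 1.54, 0.84 and 0.85. Of all 13957 genes tested, 50.1% were called higher and 12.5% lower. RUNX2 and CBFA2T3 had 0.06 and 0.50 and were not called. The median of the 6 genes was 0.67, beside 0.59 for all genes. RUNX1 stood at percentile 8.59 and RUNX3 at percentile 82.9 of all genes. The CBFB and CBFA2T2 calls ended for the gene body alone and without the peaks of neighbours, and the RUNX1 call held for each flank but not at a fold of 2.

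In the sh-ANP32B pair, RUNX1 was again called lower in Kasumi-1, with a log2 ratio of -0.77, where 9.26% of all 13705 genes were. RUNX3, CBFB, CBFA2T2 and CBFA2T3 were called higher, with 2.13, 3.20, 1.85 and 0.69, where 65.7% of all genes were. CBFB had 4759 bases in Kasumi-1 and 518 in MV4-11 and stood at percentile 88.7. CBFA2T3, at percentile 37.8, was below the median of all genes, which was 1.02. The CBFA2T3 call ended for the gene body alone (0.26), with peaks at most 1000 bases apart joined (0.57), without the peaks of neighbours (0.37), after division by the covered length (0.14) and at a fold of 2. This comparison and the NC pair hold no list in common, but each shares its lists with the knockdown comparisons.

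**Figure D4:**
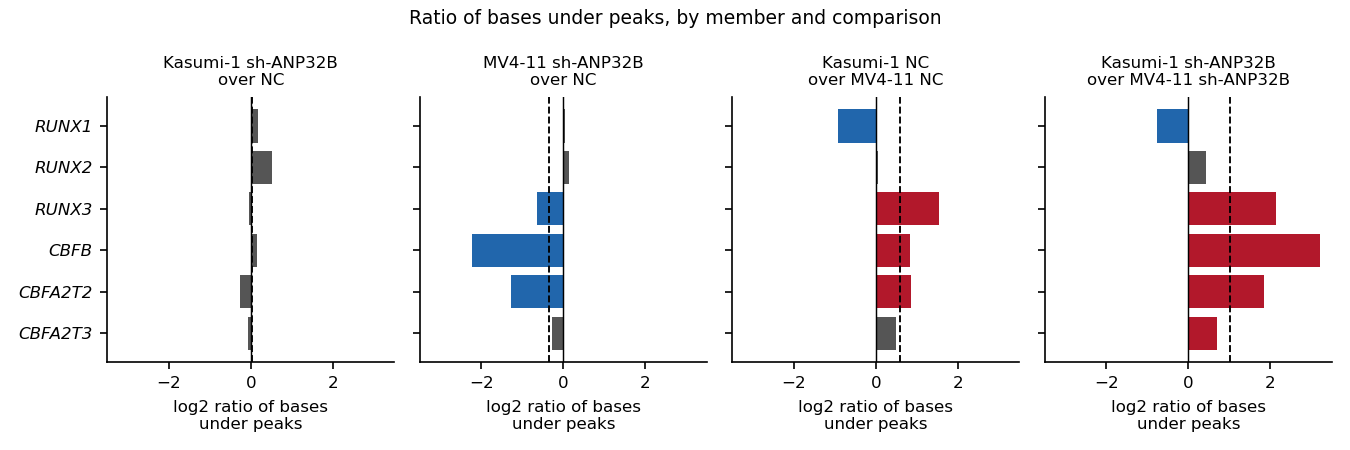
Log2 ratio of bases under H3K27ac peaks for 6 genes in the 4 comparisons (bars, red called higher, blue called lower, grey not called, with 1 list per group and no error bars), and the median of all genes tested (dashed line). RUNX1 is the one blue bar in both comparisons between the lines, and CBFB has the longest bar in MV4-11 after knockdown.

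Partners of RUNX1 and of its fusion were set beside the family: 23 genes for E proteins, the LYL1, LMO2 and LDB1 complex, corepressors, acetyltransferases and blood transcription factors. After knockdown in Kasumi-1, 0 of the 22 tested were called, beside 3.04% of all genes called higher and 4.53% lower. The median log2 ratio of the partners was -0.01. In MV4-11, 8 of 21 were called lower and 0 higher, with a median of -0.37, a share close to the 34.1% of all genes. The largest were TCF3, an E protein, with -1.03, LDB1, a scaffold of the LMO2 complex, with -0.92, HDAC1, a histone deacetylase, with -0.86, and CREBBP, an H3K27 acetyltransferase, with -0.79. Between the NC lists 7 of 22 were higher and 3 lower in Kasumi-1, where 50.1% of all genes were higher and 12.5% lower. In its locus, GATA1, the erythroid factor, had 3176 bases in the Kasumi-1 list and 384 in the MV4-11 list. None of these bases lay in the promoter windows of GATA1. The loci of ETS1 and FLI1 went the other way, with 3531 and 7658 bases for ETS1 and 11099 and 20375 for FLI1. Such locus values can include peaks at neighbouring genes.

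Of 18 genes known as targets of RUNX1 or of the fusion, 16 could be tested after knockdown in Kasumi-1. JUP, which encodes plakoglobin, was the one called lower, from 2222 to 781 bases in its locus, beside 4.53% of all genes. None of the 16 was called higher, beside 3.04% of all genes. In MV4-11, 4 of 17 were called lower, a smaller share than the 34.1% of all genes, with log2 ratios of -1.29 for TRH, -1.03 for CD34, the stem cell antigen, -0.92 for CDKN1A, the cell cycle inhibitor p21, and -0.83 for NFE2, and none higher. Between the NC lists, 7 were higher and 3 lower in Kasumi-1, the 3 being MPO, POU4F1 and KIT, where 50.1% of all genes were higher and 12.5% lower. The MPO locus had 450 bases in Kasumi-1 and 1498 in MV4-11, none of them in its promoter windows. The locus of ELANE, which encodes neutrophil elastase, had 23675 bases in Kasumi-1 and 7363 in MV4-11. These locus values, too, can include peaks at neighbouring genes.

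The genes nearest to each member in percent of the locus under peaks over the 4 lists, by Euclidean distance, were DNAJC5B for RUNX1, SLC25A51 for RUNX2, WDR46 for RUNX3, CNDP2 for CBFB, ZNF282 for CBFA2T2 and FSCN1 for CBFA2T3, at 0.439, 0.189, 0.340, 0.210, 0.261 and 0.639 percentage points. CNDP2 had 2.43%, 2.58%, 1.44% and 0.247%, beside 2.51%, 2.77%, 1.40% and 0.301% for CBFB. No other member was among the 2 nearest genes of any member.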

How the data were processed

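The authors aligned CUT&Tag reads to hg38 with Bowtie2, removed PCR duplicates with Picard, merged replicates with samtools and called peaks with MACS2 at a q-value of 0.01, per the study's methods. The submitters' processing notes name Bowtie2 2.4.4 and MACS3 3.0. Whether IgG served as the control of the peak calling is not given in the sources used here. Each deposited list gives, per peak, its chromosome or scaffold, first and last base (counted from 1) and width, with no signal, score or read count. Widths matched start and end in every row, and all 195 sequence names were in hg38. Groups came from the sample labels.

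Of the 96832 peaks, the 93305 on chromosomes 1 to 22, X and Y were used. Loci and starts came from GENCODE 44. Bases under peaks were counted per locus and window, and 2 peaks counted as shared from an overlap of 1 base. Shares have Wilson 95% intervals. The code was tested on simulated peaks with known answers before use. With 1 list per group there was no test. Sequences came from hg38, not all of them are reported here, and motifs were also searched in the RefSeq promoter table, where 6879 of 35116 entries (19.6%) and 2 of the 7 entries of the members had a match. The tools were Python 3.11.15, pandas 2.3.3, numpy 2.4.6, scipy 1.17.1 and pysam 0.24.0.

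Genes named were the 7 members, promoter neighbours with a peak in a member locus, the nearest genes in percent of locus covered, and from the partner and target lists those called in both lines or with the largest ratios. Members, lists and settings were chosen with earlier results of these data known. Alternatives changed the flank, the least width, the joining of peaks, the fold, the window and the overlap, left out peaks of neighbours or divided by covered length. The locus of the canonical transcript was added as an alternative after the data were seen.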

Additional observations from a re-analysis of the deposited data

Results flagged for a closer look

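The CBFB locus had 432 more bases under peaks in sh-ANP32B than in NC in Kasumi-1 (4759 against 4327), whereas in MV4-11 the difference of sh-ANP32B minus NC was -1898 bases (518 against 2416). The direction was opposite in the 2 lines, with 1 list per group, so this opposition was not tested. The Kasumi-1 difference was small and not called, with a log2 ratio of 0.14. It was 0.01 with only peaks of at least 1000 bases and -0.13 with a flank of 100 kb, so its direction depended on the setting. At the CBFB promoter alone the values were 2445 and 2840 bases in Kasumi-1 and 1197 and 0 in MV4-11.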

How the results depend on the processing

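Of 208 log2 ratios under alternatives, 170 kept the call and stayed within 1.5-fold, 36 moved and 2 reversed a call, both RUNX3 after knockdown in MV4-11, from -0.63 to 0.11 with a flank of 20 kb and to 0.11 with the canonical transcript. In all, 13 ratios took the opposite sign, the rest from ratios that were not called. Among the ratios that took the opposite sign, the widest step was RUNX2 in MV4-11 after knockdown, from 0.14 to -0.89. It came with the gene body alone, a flank of 20 kb and the canonical transcript. Some steps that kept the sign were wider. CBFA2T2 went from 1.85 to as high as 3.58 in the sh-ANP32B pair. After knockdown in MV4-11, CBFA2T2 went from -1.27 to as low as -2.77, and CBFB from -2.22 to as high as -0.92. In Kasumi-1 after knockdown, the 0 genes called higher became 1 without peaks of neighbours and 1 at a lower fold (RUNX2 in both), and the 0 called lower became 1 with peaks of at least 1000 bases (CBFA2T2). In MV4-11 the count of 3 called lower lay between 2 and 3, with CBFB among them in every setting, but the genes changed: RUNX2 was called lower and RUNX3 was not for the gene body alone, a flank of 20 kb and the canonical transcript. Between the NC lists, the 3 genes higher in Kasumi-1 became 1 (RUNX3) for the gene body alone, 1 without peaks of neighbours and 1 at a fold of 2, and RUNX1, called lower, became 0 genes at a fold of 2, as in the sh-ANP32B pair (0). The promoter windows gained, 1 in each line, became 0 with windows of either smaller size, with protein-coding transcripts only and with peaks of at least 1000 bases, and the 2 lost in MV4-11 became 1 under the same 4 settings, the CBFB main window. The share of NC peaks with a sh-ANP32B peak was 78.9% in Kasumi-1 and 52.3% in MV4-11 where at least 50% of both peaks had to overlap. In MV4-11 it was 63.1% where 50% of the NC peak had to, and 91.2% for NC peaks of at least 1000 bases. The cause of these changes was not tested beyond what each setting leaves out. No paired analysis was possible because each group has 1 list and the result comes from no test. Depth is unknown and the smallest widths differ between lists, so an absent peak does not show an absent mark.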
